A study of Mus musculus with 6 samples.

Results

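The retinoic acid genes described here were 10 of the 54134 genes in the count table of E10.5 mouse tailbuds. They were taken by symbol, by a rule that uses no measured value. The list was drawn up for known roles, but with earlier results of these data known. Rdh10, Aldh1a2 and Cyp1b1 are enzymes of retinoic acid synthesis, Dhrs3 and Cyp26a1 act against it, Crabp1 and Crabp2 bind retinoic acid in the cytoplasm, and Rara, Rarb and Rarg are its nuclear receptors. Each of the 10 symbols matched 1 row of the table.

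Retinoic acid is made from vitamin A in successive oxidations, from retinol to retinal and from retinal to the acid. In the elongating embryo the somites and the anterior presomitic mesoderm make it, whereas the tailbud breaks it down, and this keeps the caudal progenitors in a region of low retinoic acid. The acid acts by binding receptors that sit on DNA together with retinoid X receptors and switch target genes on, and several of those targets encode enzymes that limit the acid itself.

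The study compared 4 wildtype tailbuds with 2 tailbuds that carried Cdx2P:Nr6a1, a transgene in which a Cdx2 promoter drives the nuclear receptor gene Nr6a1 in caudal tissue, to ask what prolonged Nr6a1 does after it would normally be cleared there. All embryos were C57BL/6 at E10.5. The transgenic embryos came from pronuclear injection and were each a separate founder, so the insertion site and copy number can differ between them, and the wildtype embryos were those from the injections that lacked the transgene. From each embryo the tissue behind the last somite was taken, and 1 library was sequenced per embryo from polyadenylated RNA. The labels name no other allele or agent in either group.

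The libraries held between 44073460 and 67183802 counts. Nr6a1, the check of the labels, was at 3.94, 5.16, 5.52 and 6.90 CPM (TMM-scaled, the scale of every CPM value below unless another is named) in wildtype replicates 1 to 4 and at 23.2 and 33.8 CPM in Cdx2P:Nr6a1 replicates 1 and 2. Nr6a1 RNA was thus higher in the second of these libraries, in counts that pool the endogenous gene with the transgene. The tailbud markers T, Nkx1-2, Cdx2, Wnt3a, Fgf8 and Fgf17 were present in every library with a summed level of 1859 to 2144 CPM in wildtype and of 2183 and 1903 CPM in Cdx2P:Nr6a1. Some genes of segmented tissue were present too, with Meox1 at 13.1 to 18.0 CPM and Tcf15 at 8.51 to 14.6 CPM over the 6 libraries, while Tbx18, Mesp2, Ripply2 and Meox2 stayed under 0.2 CPM in each.

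Of the 10 genes, 9 passed the filter on low counts, for which 2 or more libraries had to exceed a count of 10 and a CPM of 2, and 4 of them were called by the quasi-likelihood test of edgeR at a Benjamini-Hochberg adjusted p under 0.05, where the background was 1.59% of all 12733 genes tested. Cyp1b1 and Cyp26a1 were higher in Cdx2P:Nr6a1 tailbuds (background 0.785% of genes) and Aldh1a2 and Dhrs3 were lower (background 0.809%). Rdh10, both binding proteins, Rara and Rarg were not called, and Rarb was below the filter. The median log2 fold change of the 9 genes was 0.10, with 6 higher and 3 lower, beside a median of -0.00071 over all genes tested. Cyp1b1 passed the filter only through the Cdx2P:Nr6a1 libraries, since all 4 wildtype libraries were under 2 CPM, so a difference for this gene was built into its being tested. In 7 of the 9 genes both Cdx2P:Nr6a1 libraries lay outside the range of the wildtype libraries, against 18.5% of all genes tested. Both this count and that of the genes called include Cyp1b1. The list was chosen with earlier results of these data known, so neither count is that of a list picked blind.

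**Figure D1:**
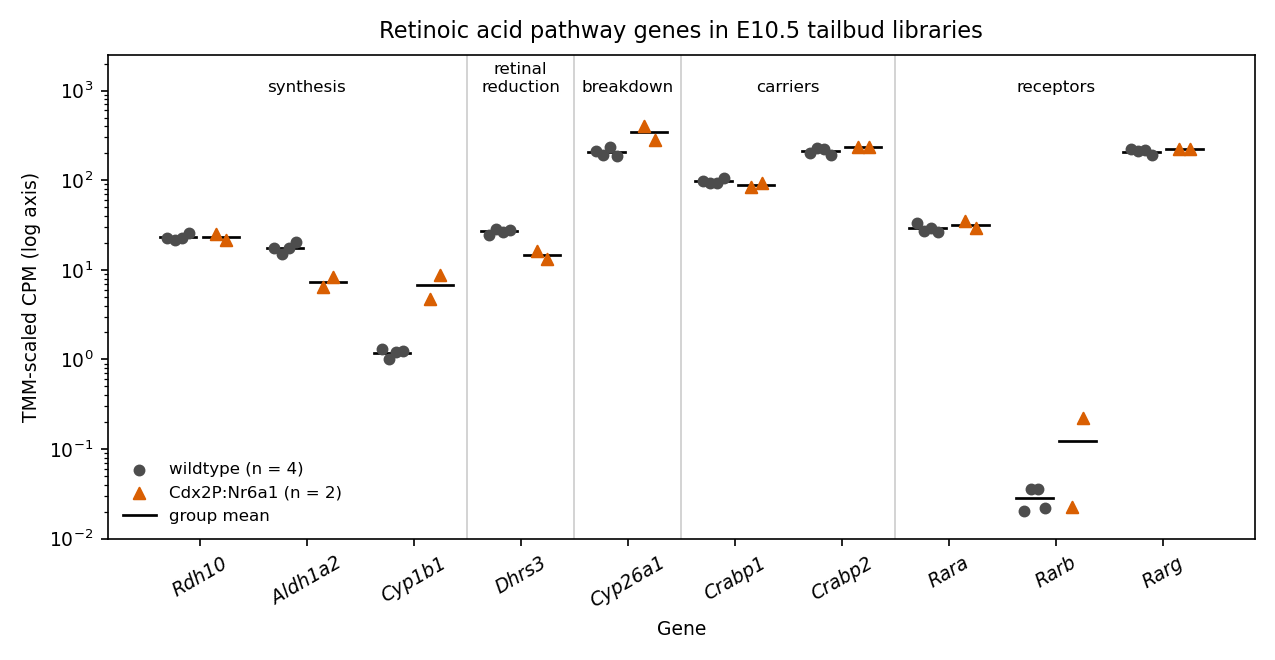
TMM-scaled CPM (log axis) of the 10 genes in each library, ordered by role, with wildtype libraries as circles (n = 4), Cdx2P:Nr6a1 libraries as triangles (n = 2) and the group mean as a line. Aldh1a2 and Dhrs3 sit below all wildtype circles and Cyp1b1 and Cyp26a1 above them, while Rarb lies under 0.3 CPM in every library.

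On a per-length scale (CPM divided by kilobases of exon), the wildtype levels fell into clear tiers. Crabp2 was highest at 159 ± 13.2 CPM per kb (SD, n = 4), above Crabp1 at 122 ± 8.02 and Cyp26a1 at 116 ± 13.2, and the last pair overlapped. Rarg followed at 49.0 ± 3.28 CPM per kb. Dhrs3 at 9.17 ± 0.622, Aldh1a2 at 7.80 ± 1.03, Rara at 6.64 ± 0.663 and Rdh10 at 5.58 ± 0.433 CPM per kb formed a lower tier in which each gene overlapped its neighbour in the order. Cyp1b1 at 0.232 ± 0.0262 and Rarb at 0.00542 ± 0.00158 CPM per kb were lowest. The wildtype tailbud thus held far more RNA for the enzyme that breaks retinoic acid down than for the dehydrogenases that make it, and its receptor RNA was mostly Rarg.

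Synthesis begins with Rdh10, the dehydrogenase that oxidises retinol to retinal (chromosome 1, 16105774 to 16133734, mm10, forward strand). Its level was 22.8, 21.7, 22.5 and 25.8 CPM in the wildtype libraries and 25.3 and 21.6 CPM in the Cdx2P:Nr6a1 libraries. One transgenic library lay within the wildtype range and the other just under it, and the log2 fold change was 0.01 (SE, the standard error, 0.10, 95% interval -0.20 to 0.23, adjusted p = 0.984, edgeR's quasi-likelihood test). The sign of the Rdh10 fold change turned with wildtype replicate 2, wildtype replicate 3 or Cdx2P:Nr6a1 replicate 1 left out.

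Aldh1a2, the retinaldehyde dehydrogenase that makes nearly all retinoic acid of the early trunk, lies on chromosome 9 from 71215789 to 71296243 (mm10, forward strand, 14 exon blocks). Its level was 17.6, 14.9, 17.6 and 20.6 CPM in wildtype and 6.40 and 8.41 CPM in Cdx2P:Nr6a1. Both Cdx2P:Nr6a1 libraries were far under the lowest wildtype library, with a mean at 0.419 of the wildtype mean.

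Aldh1a2 had a log2 fold change of -1.25 (SE 0.16, 95% interval -1.60 to -0.90, adjusted p = 0.00693, edgeR's quasi-likelihood test). With Cdx2P:Nr6a1 replicate 1 left out, which had the lower Aldh1a2 and the lower Nr6a1, its log2 fold change was -1.07 and its adjusted p was 0.0612 (edgeR). Over 16 alternatives (other tests, scalings and filters, and each library left out in turn) the fold change stayed between -1.46 and -1.07, and 15 of them called the gene. The lowest adjusted p, 8.47e-21, came from the edgeR fit without a filter on low counts, which called 876 genes in all, beside 203 as reported.

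In a dissected tailbud, fewer cells of a type and less RNA per cell cannot be told apart, and this holds for each gene described here. The cells that normally carry Aldh1a2 are those of the forming and formed somites. The 10 somite markers summed to between 90.0 and 97.1 CPM in wildtype and to 82.2 and 93.5 CPM in Cdx2P:Nr6a1, and of the 4 tested edgeR called 0, with 1 at an unadjusted p under 0.05, a level reached by 10.54% of all genes tested. The 6 presomitic mesoderm markers (Tbx6, Msgn1, Dll1, Dll3, Hes7 and Rspo3) summed to between 1253 and 1370 CPM in wildtype and to 1208 and 1167 CPM in Cdx2P:Nr6a1, with 0 called and 3 at an unadjusted p under 0.05 by edgeR (background 10.54%). The part of these differences in the lower Aldh1a2 was not tested.

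The paralogs of Aldh1a2, which make retinoic acid in other organs, were scarce in every library. Aldh1a1 had 62 counts over the 4 wildtype libraries, or 0.301 CPM on plain library size (exact Poisson 95% interval 0.231 to 0.386), and 17 and 25 counts in the Cdx2P:Nr6a1 libraries, or 0.386 (0.225 to 0.618) and 0.372 (0.241 to 0.549) CPM. Aldh1a3 was at 0.354 (0.278 to 0.446) CPM on that scale in wildtype and at 0.431 (0.260 to 0.673) and 0.387 (0.253 to 0.567) CPM in Cdx2P:Nr6a1. These intervals cover counting error only, because reads without molecular identifiers are not independent molecules. Both paralogs were below the filter with overlapping intervals, and Aldh1a2 made up 98.3% ± 0.518 (SD, n = 4) of the per-length sum of the 3 genes in wildtype and 94.3% and 95.9% in Cdx2P:Nr6a1. That sum itself was 6.71 to 9.20 CPM per kb in wildtype and 2.997 and 3.872 in Cdx2P:Nr6a1.

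Cyp1b1, a cytochrome P450 that can oxidise retinol and retinal and also metabolises steroids and foreign compounds, lies on chromosome 17 from 79706953 to 79715041 (mm10, reverse strand). It was at 1.31, 1.0, 1.20 and 1.25 CPM in wildtype and at 4.78 and 8.66 CPM in Cdx2P:Nr6a1. Both Cdx2P:Nr6a1 libraries were above every wildtype library, and the library with more Nr6a1 also had more Cyp1b1. The order of 2 libraries, for this gene and the others, cannot show a dependence on the Nr6a1 level. The counts behind these levels were 56 to 67 per wildtype library and 212 and 581 in the Cdx2P:Nr6a1 libraries.

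Cyp1b1 had the largest fold change of the 9 genes tested, at 2.51 on the log2 scale (SE 0.23, 95% interval 1.99 to 3.03, adjusted p = 0.00223, edgeR's quasi-likelihood test). The value lay between 2.43 and 2.56 under the 14 alternatives in which it was tested, and each of them called it. With either Cdx2P:Nr6a1 library left out it failed the filter, which needs 2 libraries above 2 CPM, and had no test. On the per-length scale Cyp1b1 remained minor, at 0.932 and 1.69 CPM per kb in Cdx2P:Nr6a1, compared with 2.83 and 3.71 CPM per kb for Aldh1a2 in the same libraries.

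Dhrs3, the reductase that returns retinal to retinol and so drains the substrate of Aldh1a2, lies on chromosome 4 from 144892827 to 144928209 (mm10, forward strand). It was at 24.6, 28.7, 26.2 and 27.9 CPM in wildtype and at 16.4 and 13.2 CPM in Cdx2P:Nr6a1. Both transgenic libraries were below all wildtype libraries, and here the library with more Nr6a1 was the lower of the pair. The log2 fold change of Dhrs3 was -0.86 (SE 0.11, 95% interval -1.11 to -0.62, adjusted p = 0.00693, edgeR's quasi-likelihood test). All 16 alternatives called it, with fold changes between -1.03 and -0.71 and a highest adjusted p of 0.0484 (edgeR, without Cdx2P:Nr6a1 replicate 2).

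Rdh10 and Dhrs3 work in opposite directions on the same pair of molecules. The per-length ratio of Rdh10 to Dhrs3 was 0.653, 0.532, 0.606 and 0.651 in wildtype and 1.08 and 1.15 in Cdx2P:Nr6a1. The ratio changed from below 1 in all wildtype libraries to above 1 in both Cdx2P:Nr6a1 libraries, and the change lay in Dhrs3, since Rdh10 was at 5.21 to 6.21 CPM per kb in wildtype and at 6.08 and 5.19 in Cdx2P:Nr6a1.

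**Figure D2:**
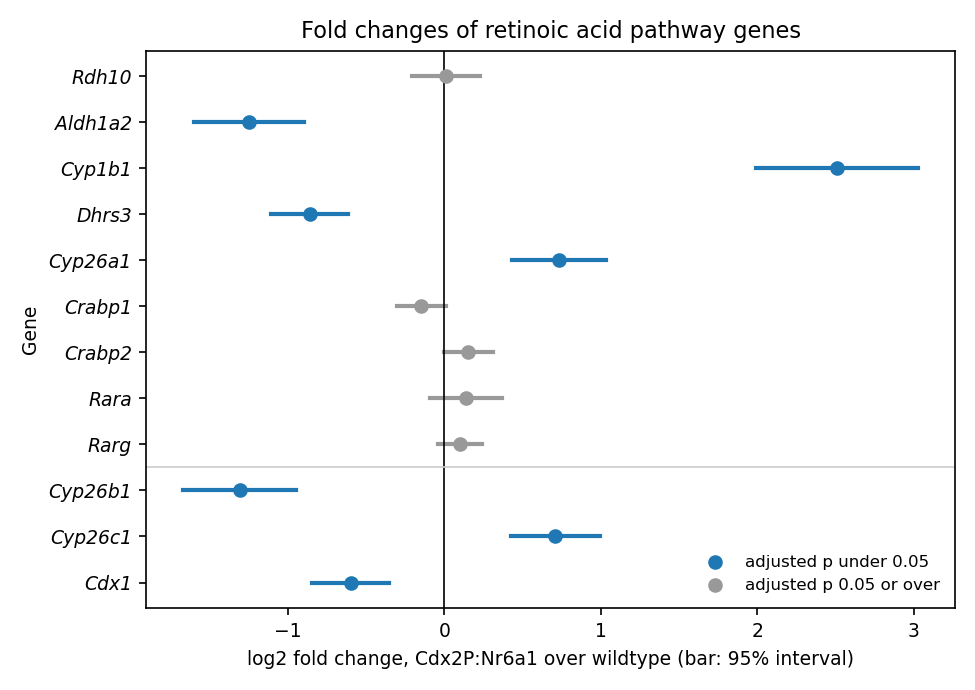
Log2 fold change of Cdx2P:Nr6a1 over wildtype with its 95% interval from edgeR for the 9 genes that were tested (upper part) and for Cyp26b1, Cyp26c1 and Cdx1 (lower part), blue where the adjusted p was under 0.05. The intervals of Aldh1a2, Dhrs3, Cyp26b1 and Cdx1 lie wholly below 0 and those of Cyp1b1, Cyp26a1 and Cyp26c1 wholly above it, and the intervals of the remaining genes include 0.

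Cyp26a1, the cytochrome P450 that hydroxylates retinoic acid in the tailbud and marks it for removal, lies on chromosome 19 from 37697808 to 37701528 (mm10, forward strand, 7 exon blocks). It was at 210, 190, 237 and 185 CPM in wildtype and at 401 and 282 CPM in Cdx2P:Nr6a1. Both Cdx2P:Nr6a1 libraries were above every wildtype library, but they stood further apart from each other than the wildtype libraries did, and the library with less Nr6a1 had more Cyp26a1.

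Cyp26a1 had a log2 fold change of 0.73 (SE 0.13, 95% interval 0.43 to 1.03, adjusted p = 0.0315, edgeR's quasi-likelihood test), with a mean at 1.66 times the wildtype mean. This was the least stable of the 4 calls. With wildtype replicate 1, 2 or 4 left out its adjusted p was 0.0677, 0.0619 or 0.0807, and it was 0.161 with robust estimation of the dispersion (edgeR). Without Cdx2P:Nr6a1 replicate 1 the log2 fold change was 0.46 and the adjusted p was 0.215, and without replicate 2 they were 0.97 and 0.0297 (edgeR). Of the 16 alternatives 11 called the gene, and all 16 gave a positive fold change. The lowest adjusted p, 1.43e-30, came from the edgeR fit without a filter on low counts, where the SE fell to 0.060.

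Cyp26a1 and the receptor gene Rarb are both textbook targets of retinoic acid, and their promoter sequences are shown because, of the 8 of the 10 genes with a promoter window in RefSeq (GRCm38.p6, 250 bases before to 50 after a transcript start), only these held a direct repeat of retinoid receptor half-sites with a spacing of 5 bases. The half-sites searched on both strands were AGGTCA with its variant GGGTCA, and AGTTCA with its variant GGTTCA. Such a repeat was in 32 of 32851 windows of the whole table, or 0.0974%, and in 2 of the 14 windows of the 10 genes. Repeats of the same half-sites with a spacing of 1 base were in 0.222% and with a spacing of 2 bases in 0.268% of all windows, and repeats of AGGTCA without a spacer, the form that the Nr6a1 protein is known to bind, were in 2 windows, or 0.00609%. None of these 3 forms was in a window of the 10 genes. A match describes the letters of the window only, and none was read as a site in use. Below, the Cyp26a1 sequence covers chr19:37697558-37697797 on the forward strand up to the first annotated exon base, and the Rarb sequence is the repeat with 6 bases on each side from the gene's own, reverse strand of chromosome 14. Capitals mark the repeat with its spacer.
Cyp26a1: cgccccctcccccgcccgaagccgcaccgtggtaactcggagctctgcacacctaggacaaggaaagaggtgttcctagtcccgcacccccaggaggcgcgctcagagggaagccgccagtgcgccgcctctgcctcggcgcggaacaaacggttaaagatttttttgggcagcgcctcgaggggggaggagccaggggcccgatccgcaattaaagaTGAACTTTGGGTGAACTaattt
Rarb: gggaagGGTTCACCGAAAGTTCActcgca

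In Cyp26a1 the repeat occupied positions 37697776 to 37697792 of chromosome 19, from 32 to 16 bases before the start, and ran on the strand opposite to the gene. Read 5′ to 3′ with the half-sites in capitals it was AGTTCAcccaaAGTTCA. In Rarb it was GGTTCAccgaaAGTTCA at 16575513 to 16575529 of chromosome 14, from 53 to 37 bases before a start that lies inside the gene as counted, on the gene's own strand. Cyp26a1 and Rarb thus shared the second half-site and differed in the first, and their wildtype levels were far apart, at 104 to 133 CPM per kb for Cyp26a1 and at 0.00389 to 0.00679 CPM per kb for Rarb. All 250 bases before that Rarb start, the repeat among them, lie in annotated exons, whereas the Cyp26a1 repeat lies outside them.

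The other hydroxylases of the family moved in different directions. Cyp26c1, whose gene lies just before Cyp26a1 on chromosome 19 (37685581 to 37693398, mm10), was at 6.01, 6.82, 6.13 and 6.03 CPM in wildtype and at 11.7 and 8.78 CPM in Cdx2P:Nr6a1. Cyp26b1 (chromosome 6, 84571414 to 84593908, mm10, reverse strand) was at 12.4, 12.5, 9.49 and 9.24 CPM in wildtype and at 4.64 and 4.19 CPM in Cdx2P:Nr6a1. Cyp26c1 was above and Cyp26b1 below all wildtype libraries in both transgenic libraries.

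The log2 fold change was 0.71 for Cyp26c1 (SE 0.13, adjusted p = 0.0292) and -1.31 for Cyp26b1 (SE 0.16, adjusted p = 0.00654) by edgeR's quasi-likelihood test. Cyp26c1, like Cyp26a1, was higher in the first than in the second transgenic library. Of the 16 alternatives 12 called Cyp26c1, and leaving out Cdx2P:Nr6a1 replicate 1 or 2 moved its log2 fold change to 0.49 or 0.91 (adjusted p = 0.208 or 0.0444, edgeR). Without wildtype replicate 1, 3 or 4 the adjusted p of Cyp26c1 was 0.0620, 0.0781 and 0.0755 (edgeR). For Cyp26b1 14 of 16 alternatives gave a call, and its adjusted p was 0.0528 with the first and 0.0791 with the second Cdx2P:Nr6a1 library left out (edgeR).

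Cyp26a1 outweighed its paralogs throughout. It made up 95.3% ± 0.691 (SD, n = 4) of the per-length sum of the 3 hydroxylases in wildtype and 96.8% and 96.5% in Cdx2P:Nr6a1, so the sum followed Cyp26a1, at 109.5 to 138.7 CPM per kb in wildtype and 234 and 165 in Cdx2P:Nr6a1. The share of Cyp26b1 was 1.28% to 2.06% in wildtype and 0.371% and 0.475% in Cdx2P:Nr6a1. The share of Cyp26c1 was 2.53% to 3.44% and then 2.87% and 3.05%, within the wildtype range.

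Cyp26a1 and Aldh1a2 moved in opposite directions, so their ratio was set out in each library. The per-length ratio of Cyp26a1 to Aldh1a2 was 15.3, 16.3, 17.2 and 11.5 in wildtype and 80.1 and 42.8 in Cdx2P:Nr6a1. Neither transgenic library overlapped the wildtype libraries, and the mean ratio was 4.08 times that of wildtype. The spread between the transgenic libraries was itself larger than the whole wildtype range, with Cdx2P:Nr6a1 replicate 1 holding both the higher Cyp26a1 and the lower Aldh1a2. An exact permutation test of any single value, two-sided, could not fall under 0.0667 with 15 arrangements of 2 libraries against 4.

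**Figure D3:**
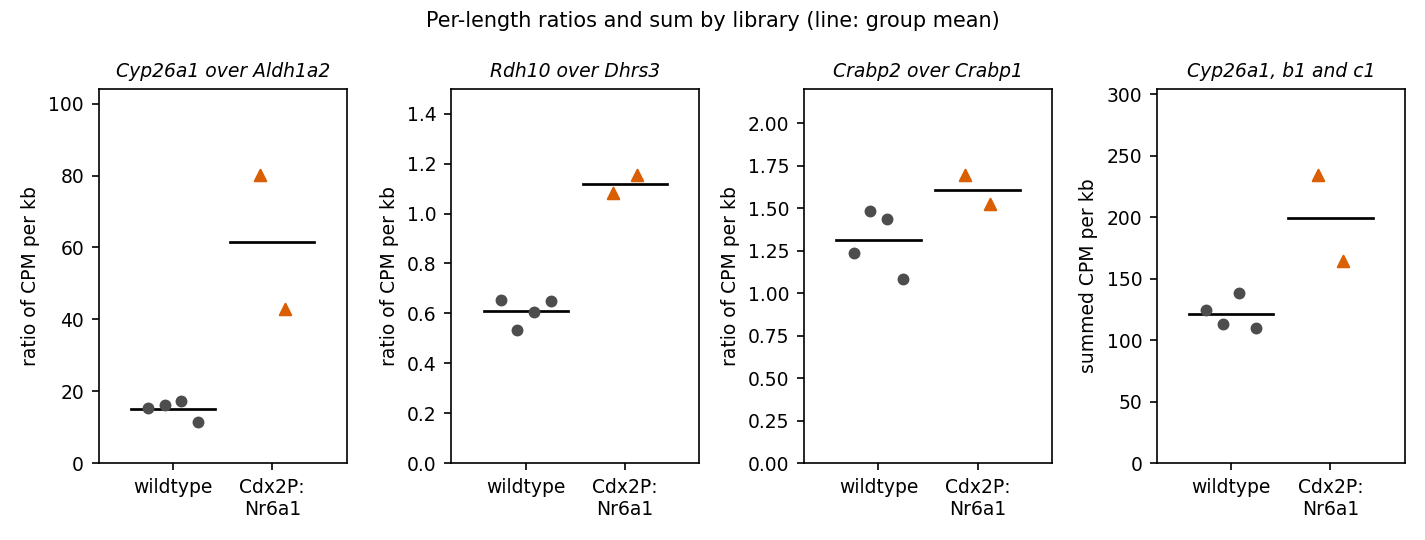
Per-length ratios (CPM per kb over CPM per kb) of Cyp26a1 to Aldh1a2, Rdh10 to Dhrs3 and Crabp2 to Crabp1, and the summed CPM per kb of the 3 Cyp26 genes, in each library, with circles for wildtype (n = 4), triangles for Cdx2P:Nr6a1 (n = 2) and a line at each group mean. The first ratio is 11.5 to 17.2 in wildtype and 42.8 and 80.1 in Cdx2P:Nr6a1, and in each panel both triangles lie above all circles.

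The binding proteins were abundant and differed little. Crabp1 (chromosome 9, 54764748 to 54773110, mm10, forward strand), which holds retinoic acid in the cytoplasm, was at 98.0, 93.0, 93.7 and 107 CPM in wildtype and at 84.1 and 92.7 CPM in Cdx2P:Nr6a1. Crabp2 (chromosome 3, 87948666 to 87953376, mm10, forward strand), which carries the acid to its receptors, was at 200, 228, 221 and 191 CPM in wildtype and at 235 and 233 CPM in Cdx2P:Nr6a1. Crabp1 was just below and Crabp2 just above all wildtype libraries in both transgenic libraries.

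Neither binding protein was called. The log2 fold change was -0.15 for Crabp1 (SE 0.07, 95% interval -0.31 to 0.01, adjusted p = 0.528) and 0.15 for Crabp2 (SE 0.07, 95% interval -0.0055 to 0.31, adjusted p = 0.497) by edgeR's quasi-likelihood test. Under all 16 alternatives each kept its sign without a call. The per-length ratio of Crabp2 to Crabp1 was 1.24, 1.49, 1.43 and 1.09 in wildtype and 1.69 and 1.52 in Cdx2P:Nr6a1, close above the highest wildtype library.

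Among the receptors, Rarg (chromosome 15, 102234938 to 102257517, mm10, reverse strand), the retinoic acid receptor known from caudal progenitors, was at 220, 211, 216 and 189 CPM in wildtype and at 224 and 225 CPM in Cdx2P:Nr6a1. Rara (chromosome 11, 98927818 to 98974942, mm10, forward strand), the most widely expressed receptor of the family, was at 33.1, 27.3, 28.9 and 26.6 CPM in wildtype and at 35.0 and 29.0 CPM in Cdx2P:Nr6a1. For Rarg both transgenic libraries were just above the highest wildtype library, and for Rara the groups overlapped.

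Rarg had a log2 fold change of 0.10 (SE 0.06, 95% interval -0.04 to 0.24, adjusted p = 0.689) and Rara of 0.14 (SE 0.10, 95% interval -0.09 to 0.37, adjusted p = 0.776), both from edgeR's quasi-likelihood test, and 0 of 16 alternatives called either. At the upper bounds of these intervals both receptors would be less changed than Cyp26a1 was at its lower bound of 0.43. The sum of the 3 receptors was 50.4 to 59.2 CPM per kb in wildtype and 60.5 and 59.4 in Cdx2P:Nr6a1. Rarg made up 88.1% ± 0.675 (SD, n = 4) of it in wildtype and 86.8% and 88.8% in Cdx2P:Nr6a1.

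Rarb (chromosome 14, 16430839 to 16819156, mm10, reverse strand), the receptor gene that retinoic acid itself induces, was close to absent. It had 1, 2, 2 and 1 counts in the wildtype libraries and 1 and 15 counts in the Cdx2P:Nr6a1 libraries. Cdx2P:Nr6a1 replicate 1 was thus at the wildtype level and replicate 2 stood apart from the other 5 libraries. On plain library size Rarb was at 0.0291 CPM over the 4 wildtype libraries (exact Poisson 95% interval 0.0107 to 0.0634), at 0.0227 (0.000574 to 0.126) in Cdx2P:Nr6a1 replicate 1 and at 0.223 (0.125 to 0.368) in replicate 2. No test was made, as the gene was below the filter.

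The same library that held the Rarb counts also held more RNA of some markers of ventral and lateral caudal mesoderm. That is the tissue of the hindlimb and body wall. The 7 markers of that tissue summed to between 10.9 and 14.5 CPM in wildtype and to 13.5 and 18.6 CPM in the Cdx2P:Nr6a1 libraries. Of these, 0 of the 2 tested had even an unadjusted p under 0.05 by edgeR (background 10.54%). Of these markers Tbx4 was at 1.68 CPM in Cdx2P:Nr6a1 replicate 2 and at 0.123 to 0.270 CPM in the other 5 libraries, and Hand2 was at 0.879 CPM there and at 0.0890 to 0.268 CPM in the others. Bmp4 and Pitx1, the most abundant of the 7, were at 12.2 and 2.33 CPM in replicate 2. Both lay inside their wildtype ranges, 7.75 to 12.3 CPM for Bmp4 and 1.41 to 2.48 CPM for Pitx1. The 5 macrophage markers summed to 45.6 CPM in this library and to between 9.95 and 23.0 CPM in the other 5, but 28.8 CPM of this was Lyz2. The other 4 summed to 16.8 CPM there, inside the wildtype range of 8.57 to 20.6 CPM. Their part in the Rarb counts was not tested. The exons of Rarb also shared 1793 bases, 34.1% of its exon length, with exons of Top2b on the opposite strand, which had 100056 counts over the 6 libraries, and the use of strand in the counting is not given in the sources used here, so reads on those bases cannot be assigned to Rarb with certainty. No exon of another gene overlapped the exons of the remaining 9 genes.

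Beyond the 10 genes, 42 further genes of the retinoid pathway were looked at, in which 26 passed the filter and 2 were called (background 1.59%), Cyp26c1 higher and Cyp26b1 lower. Of the 10 genes of retinol uptake, storage and transport 6 were tested and 0 called, with 3 at an unadjusted p under 0.05 (edgeR, background 10.54%). Stra6, the membrane receptor that takes up retinol, was at 65.0 to 90.0 CPM in wildtype and at 63.0 and 61.7 CPM in Cdx2P:Nr6a1, a log2 fold change of -0.26 (SE 0.11, adjusted p = 0.454, edgeR's quasi-likelihood test). The blood carriers of retinol Ttr and Rbp4 had the largest fold changes of this group, -1.50 (SE 1.41) and -0.51 (SE 0.59), and both rested on wildtype replicate 2, which held 21.3 CPM of Ttr where the other wildtype libraries held 0.0179 to 4.90 CPM, and 18.9 CPM of Rbp4 where they held 3.45 to 7.61 CPM. Without that library the fold changes were 0.26 for Ttr and 0.22 for Rbp4.

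Of the 16 retinol and retinal dehydrogenases and reductases besides those described, edgeR tested 6 and called 0, and 0 reached an unadjusted p under 0.05. Their fold changes were led by Rdh5 at 0.31 (SE 0.18), Rdh11 at -0.11 (SE 0.07) and Rdh14 at -0.10 (SE 0.12). The retinoid X receptors that pair with the retinoic acid receptors had a sum of 33.0 to 36.6 CPM per kb in wildtype and of 31.9 and 33.6 in Cdx2P:Nr6a1. Of all 14 receptor partners and cofactors 12 were tested and 0 called, with 1 at an unadjusted p under 0.05 (edgeR, background 10.54%). In this group Ncoa1 had a log2 fold change of -0.27 (SE 0.14) and Nr2f2 one of 0.13 (SE 0.21).

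Genes that are known to respond to retinoic acid were mixed. Of 12 such genes 9 were tested, 4 were higher and 5 lower, their median log2 fold change was -0.02, and 1 was called (background 1.59%). Cdx1, a caudal homeobox gene with retinoic acid response elements, was at 9.80, 9.71, 9.94 and 11.7 CPM in wildtype and at 6.69 and 6.87 CPM in Cdx2P:Nr6a1. Both transgenic libraries were under all wildtype libraries, and the log2 fold change of Cdx1 was -0.60 (SE 0.11, adjusted p = 0.0313, edgeR's quasi-likelihood test). Of the 16 alternatives 13 called it, and the adjusted p was 0.0690 with wildtype replicate 3 left out and 0.186 with either Cdx2P:Nr6a1 library left out (edgeR).

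Among the other response genes Zfp703 had a log2 fold change of -0.34 (SE 0.11, adjusted p = 0.202) and Tgm2 of 0.15 (SE 0.21, adjusted p = 0.908) by edgeR's quasi-likelihood test, both without a call. Zfp703 was at 32.5 to 43.3 CPM in wildtype and at 28.8 and 28.3 CPM in Cdx2P:Nr6a1. The response gene Stra8 had 0 counts in the wildtype libraries (exact Poisson 95% upper bound 0.0179 CPM). Neurog2 and Pax6, also neural tube markers, were below the filter too and had no test. On plain library size Neurog2 was at 0.165 CPM in wildtype (exact Poisson 95% interval 0.114 to 0.231). In Cdx2P:Nr6a1 it was at 0.635 (0.422 to 0.918) and 0.863 (0.656 to 1.12) CPM, above the wildtype interval in both libraries. Pax6 was at 0.0826 CPM in wildtype and at 0.159 and 0.104 CPM in Cdx2P:Nr6a1, with overlapping intervals. Against this list, Cyp26a1 and Dhrs3, which retinoic acid is also known to induce, had fold changes of 0.73 and -0.86, opposite in sign to each other.

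Markers of other tissues were read beside these values. Of the 8 neural tube markers 3 were tested and Sox1 was called (background 1.59%). Sox1 was at 0.902 to 1.41 CPM in wildtype and at 2.93 and 5.10 CPM in Cdx2P:Nr6a1, a log2 fold change of 1.77 (SE 0.25, adjusted p = 0.0116, edgeR's quasi-likelihood test). Like Cyp1b1, it passed the filter only through the Cdx2P:Nr6a1 libraries. The neural sum was 108 to 128 CPM in wildtype and 146 and 148 CPM in Cdx2P:Nr6a1, with Olig2 at 0 in all 6 libraries. Most of it was Nkx1-2, which axial progenitors also express and which is among the tailbud markers above, and the other 7 neural markers summed to 27.8 to 33.4 CPM in wildtype and to 34.0 and 42.7 CPM in Cdx2P:Nr6a1, the first close to the highest wildtype library. The 8 hindgut endoderm markers summed to 415 to 535 CPM in wildtype and to 616 and 537 CPM in Cdx2P:Nr6a1, the second just above the highest wildtype library. All 8 were tested and Krt18 was called (background 1.59%), at a log2 fold change of 0.37 (SE 0.06, adjusted p = 0.0264, edgeR). Nearly all of this sum came from the general epithelial genes Epcam, Cdh1, Cldn6, Krt8 and Krt18, and the endoderm regulators Sox17, Foxa1 and Foxa2 summed to 11.4 to 17.7 CPM in wildtype and to 15.5 and 16.6 CPM in Cdx2P:Nr6a1, within the wildtype range. Cdx2 was called among the 6 tailbud markers, all tested (0.35, SE 0.07, adjusted p = 0.0340, edgeR, background 1.59%). In the lists of notochord, surface ectoderm, neural crest, erythroid cells, macrophages and endothelium, with 2 to 5 genes tested in each, edgeR called 0 genes (background 1.59%). At an unadjusted p under 0.05 there was 1 macrophage gene (Lyz2) and 0 others (background 10.54%). The part of the neural and epithelial differences in the fold changes of the 10 genes was not tested.

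**Figure D4:**
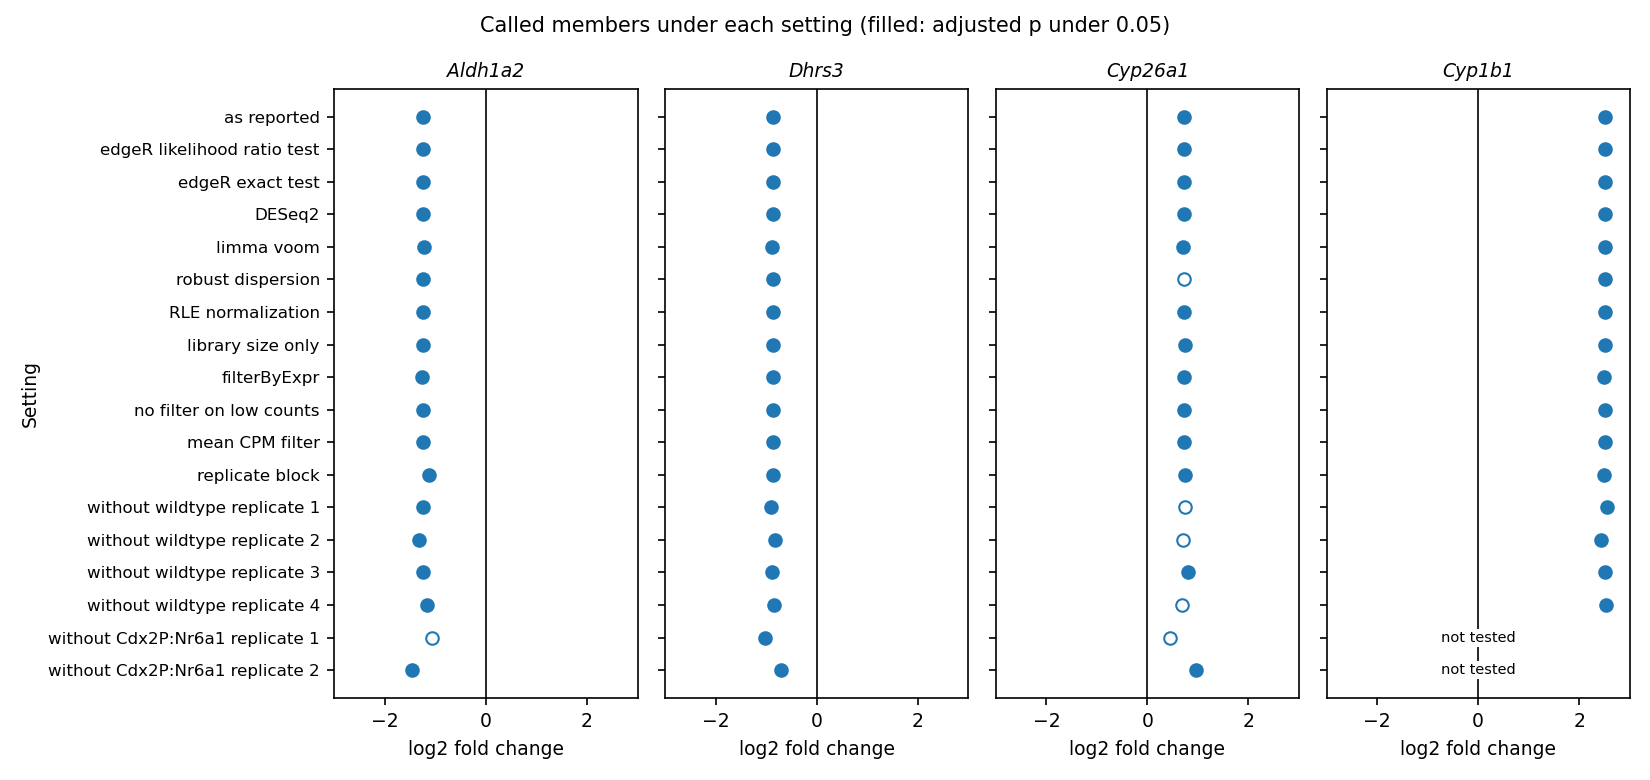
Log2 fold change (x axis) of the 4 genes called, under the reported setting and each alternative (rows), filled where the adjusted p was under 0.05 and open where it was not. Dhrs3 is filled in every row, Aldh1a2 is open in 1 row, Cyp26a1 in 5, and Cyp1b1 was not tested with a Cdx2P:Nr6a1 library left out, while no point crosses 0.

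The number of the 10 genes called rested on the small transgenic group. It was 4 with all libraries, 3 without wildtype replicate 1, 2 or 4, and 4 without wildtype replicate 3. Without Cdx2P:Nr6a1 replicate 2 it was 3 (Aldh1a2, Dhrs3 and Cyp26a1), and without Cdx2P:Nr6a1 replicate 1 it was 1 (Dhrs3), where the lone transgenic library was assumed to vary like the wildtype group. The transgenic libraries differed from each other by a factor of 0.702 for Cyp26a1, 1.81 for Cyp1b1, 1.31 for Aldh1a2 and 0.802 for Dhrs3 (replicate 2 over replicate 1), beside 1.46 for Nr6a1 itself. For Rarg and Crabp2 the same factors were 1.01 and 0.992.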

How the data were processed

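RNA was measured in 6 tailbuds, 4 wildtype and 2 Cdx2P:Nr6a1, grouped by the genotype in their labels. According to the methods and labels, the authors prepared stranded polyadenylated libraries, sequenced single-end reads, aligned them with STAR to mm10 and deposited the reads counted on each gene as raw counts, neither normalized nor filtered. The counting program and its strand setting are not given in the sources used here. A second deposited file holds the authors' own comparison (fold changes, p-values, FDR, CPM) and was not used. The table held 0 columns of other samples, and 4 rows whose names occur more than once (spreadsheet dates) were kept apart by row.

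The members and lists were chosen with earlier results of these data known. Named were the 10 genes, Nr6a1, the genes of the pathway and response lists that were called, the 3 others per list with the largest absolute fold change, paralogs and overlapping genes. Some genes that this rule names are not reported here. Marker genes were named where a value moved with a result.

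Counts were tested in R 4.3.3 with edgeR 4.0.16 (quasi-likelihood, TMM, no covariate; genes with a count above 10 and CPM above 2 in 2 libraries; Benjamini-Hochberg over all genes tested, 0.05), with limma 3.58.1 and DESeq2 1.42.0 as alternatives, and tabulated in Python 3.11.15. CPM used TMM library sizes, exon lengths came from the table, and errors are SD unless named. The labels do not say whether litters were shared. The p-values set the group difference against a spread between embryos estimated over both groups, to which only 2 transgenic founders contributed. Replicates differed by more than sampling noise. On simulated counts with a log2 change of 1 the test called 192 of 198 changed genes and 7 unchanged ones of 12654 genes, and with 0.5 it called 109 of 197 and 8 of 12645. Library totals of 44073460 to 67183802 limit genes with few counts, such as Rarb. The alternatives were other tests, scalings and filters, the replicate block, and each library left out, and a filter on mean CPM above 1 was chosen after seeing the data.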

Additional observations from a re-analysis of the deposited data

Results flagged for a closer look

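In wildtype, Cyp26c1 and Cdx1 each had 1 library standing apart from the other 3. For Cyp26c1 it was replicate 2 at 6.82 CPM where the others were at 6.01 to 6.13, a gap of 0.849 of the whole range, and for Cdx1 it was replicate 4 at 11.7 CPM where the others were at 9.71 to 9.94, a gap of 0.888 of the range, both above Dixon's critical value for 4 samples. Of 16 genes examined in this way 2 passed, and about 1 in 20 groups passes by chance. Both Cdx2P:Nr6a1 libraries lay outside the wildtype range with these libraries kept, at 11.7 and 8.78 CPM for Cyp26c1 and at 6.69 and 6.87 CPM for Cdx1. Without the library concerned the log2 fold change was 0.75 for Cyp26c1 and -0.54 for Cdx1, and both were still called (adjusted p = 0.0402 and 0.0465, edgeR).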

How the results depend on the processing

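Of the 10 genes, 4 were called with all libraries and 1 to 4 with a library left out. The number of all genes called was 203, and it was 401 by edgeR's likelihood ratio test, 391 by its exact test, 477 by DESeq2, 876 without a filter on low counts and 61 to 175 with a library left out. Without the filter 6 genes of the wider pathway (2 as reported) and 4 response genes (1 as reported) were called. With a library left out these counts were 0 to 2 and 0 to 1, and the filterByExpr filter gave 2 response genes. Genes that were not called could change sign. With a library left out the log2 fold change ranged from -0.10 to 0.12 for Rdh10, -0.00024 to 0.27 for Rara, -0.040 to 0.30 for Nr2f2, -0.91 to 0.22 for Rbp4, -0.15 to 0.39 for Tgm2 and -3.74 to 0.26 for Ttr, and limma voom gave 0.33 for Ttr. The causes were not tested.

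The replicate number is shared by the groups in the labels. The deviations of same-numbered libraries from their group means correlated at 0.194 and -0.139. The deviations of the 2 Cdx2P:Nr6a1 libraries mirror each other, so these values cannot show whether the number pairs the embryos. With the replicate block 442 genes were called, all of the 4 members called above, 4 wider pathway genes and 3 response genes, and Rdh14 turned to 0.027. Scaling by library size alone or by RLE moved the median log2 fold change of all genes to 0.0051 and -0.0025. Depth limits Rarb, and 2 transgenic embryos limit every comparison.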
